A study of Mus musculus with 4 samples.

Results

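The genes of the cellular oxygen-sensing pathway were followed in 4 RNA-seq libraries of mouse regulatory T cells. The 7 genes were chosen by name as the core factors and enzymes of the pathway; the rule used no threshold on measured values, but it was written with earlier results of these libraries known. They are Hif1a, Epas1 and Arnt, which encode hypoxia-inducible transcription factor (HIF) subunits, Egln1 and Egln2, which encode prolyl hydroxylases, Hif1an, which encodes an asparaginyl hydroxylase, and Vhl, which encodes a ubiquitin ligase subunit. All 7 were found among the 50600 genes of each file, and all 7 were among the 13478 genes that passed a filter on low counts.

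Cells sense oxygen through enzymes that need it as a substrate. When oxygen is present, the prolyl hydroxylases modify the HIF alpha subunits, the von Hippel-Lindau protein binds the modified form, and the ligase it belongs to marks the subunit for destruction. When oxygen is scarce the alpha subunit escapes, pairs with the beta subunit encoded by Arnt, and switches on genes for glycolysis, glucose uptake and mitophagy. This control acts on the protein, so the transcript levels below do not measure HIF activity. In mouse CD4+ T cells the pathway is known for its part in the balance between Th17 and regulatory T cells, and Vhl is known to be needed for stable regulatory T cell function.

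All 4 libraries, numbered as biological replicates 1 to 4, belong to 1 group: regulatory T primary cells of mouse strain C57BL/6NJ. The labels link a protocol for CD4+ T cell differentiation, the names inside the files add "activated", "sorted" and 72 h, and neither age nor sex was recorded. The biosample records are separate but the donor record is shared. The p-values thus reflect only how these samples vary, in part perhaps for technical reasons, and no contrast between conditions exists. Although the assay title reads total RNA-seq, the linked library protocol refers to poly(A)+ RNA. The sources used here do not give the oxygen tension of the culture.

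The libraries held 32648138 to 94983494 counts. Replicates 1 and 2 stood apart from replicates 3 and 4 in the sex-linked genes: Xist measured 312 and 331 TPM in the first pair and at most 2.38 TPM in the other, and Y-linked Eif2s3y at most 0.132 TPM against 49.3 and 67.7 TPM. This split goes against the single donor record: replicates 1 and 2 read as female cells and replicates 3 and 4 as male cells. The group therefore mixes the sexes, and the 4 libraries cannot all come from 1 animal. Whether each came from a separate animal is not stated. TPM is the count per exon length, scaled to the same total in every library. Replicate 1 also held the most Gm42418, a locus carrying ribosomal RNA sequence, at 11891 TPM against 1555 to 4335 TPM in the others. The 7 fixed regulatory T cell markers all reached 1 TPM in every library, with a summed level of 4594 to 4973 TPM. Summed markers of other cell types reached 16.6 TPM at most for CD8+ T cells, 1.04 for B cells, 2.85 for myeloid, 2.71 for NK, 1.79 for stromal and 0.245 for erythroid cells.

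Upstream sequences of Hif1a, Egln2 and Egln3 are shown because these genes carry the core letters of the hypoxia response element, to which HIF dimers bind, and because their 250 bases lie outside the exons of the gene in the deposited annotation. Egln3, a further prolyl hydroxylase, is shown beside the members as a textbook HIF target. The sequences are from RefSeq (GRCm38.p6, the assembly also called mm10) and end at the base before the RefSeq transcription start. Capitals mark ACGTG or GCGTG on either strand; CACGTG is an E-box that reads as ACGTG on both strands and was counted as 1 place.
Hif1a, chr12:73907617-73907866, plus strand: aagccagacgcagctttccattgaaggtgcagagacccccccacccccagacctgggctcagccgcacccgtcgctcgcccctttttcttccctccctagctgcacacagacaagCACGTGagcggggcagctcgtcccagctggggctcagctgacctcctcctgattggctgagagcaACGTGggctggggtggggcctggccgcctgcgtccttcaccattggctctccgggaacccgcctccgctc
Egln2, chr7:27166803-27167052, minus strand: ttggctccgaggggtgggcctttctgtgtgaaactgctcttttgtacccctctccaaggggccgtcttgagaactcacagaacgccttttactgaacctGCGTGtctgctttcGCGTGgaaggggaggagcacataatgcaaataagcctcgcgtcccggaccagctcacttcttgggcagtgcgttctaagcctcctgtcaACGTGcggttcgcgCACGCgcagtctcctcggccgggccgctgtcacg
Egln3, chr12:54203875-54204124, minus strand: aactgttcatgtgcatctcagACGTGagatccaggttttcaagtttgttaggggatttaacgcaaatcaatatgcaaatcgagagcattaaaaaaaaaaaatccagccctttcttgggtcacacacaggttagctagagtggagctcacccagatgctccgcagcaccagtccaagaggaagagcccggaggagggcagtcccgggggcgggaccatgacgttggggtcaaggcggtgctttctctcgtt

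Hif1a held 2 places with ACGTG, 1 of them the E-box, and no GCGTG. Its RefSeq start lies 6492 bases inside the gene as the deposited annotation draws it. Egln2 held 1 ACGTG and 3 GCGTG in the window shown; a second RefSeq start of Egln2, with its window at chr7:27165729-27165978 and also outside its exons, held 0 ACGTG and 1 GCGTG. Egln3 held 1 ACGTG. Among the other members, Egln1 held 1 of each, Arnt 1 GCGTG, and Hif1an and Vhl neither, while 6 of the 7 members matched the RefSeq table and Epas1 is named only. Of 32851 upstream windows of the same length, 16.6% held ACGTG, 28.2% held GCGTG, 38.6% held either and 1.95% held 2 or more places with ACGTG. A match describes letters, not a bound site.

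Egln1 had the highest level of the 7 members and Epas1 the lowest, with mean levels of 216 ± 18.5 and 2.14 ± 0.557 TPM (SD, n = 4). Between them came Hif1a at 101 ± 12.4 TPM, Egln2 at 78.0 ± 2.85 TPM, Vhl at 39.5 ± 5.96 TPM, Arnt at 39.4 ± 2.32 TPM and Hif1an at 37.5 ± 1.57 TPM. By mean TPM, Egln1 stood above 94.1% of the genes tested, Hif1a above 85.5%, Egln2 above 80.9%, Vhl, Arnt and Hif1an above 64.1% to 65.7%, and Epas1 above 14.5%. The median mean level over all genes tested was 21.4 TPM. The order is one per exon length. In raw counts Egln2 (2151 to 6531) was below Arnt (3210 to 9145) and Hif1an (2576 to 7069) in every library.

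**Figure D1:**
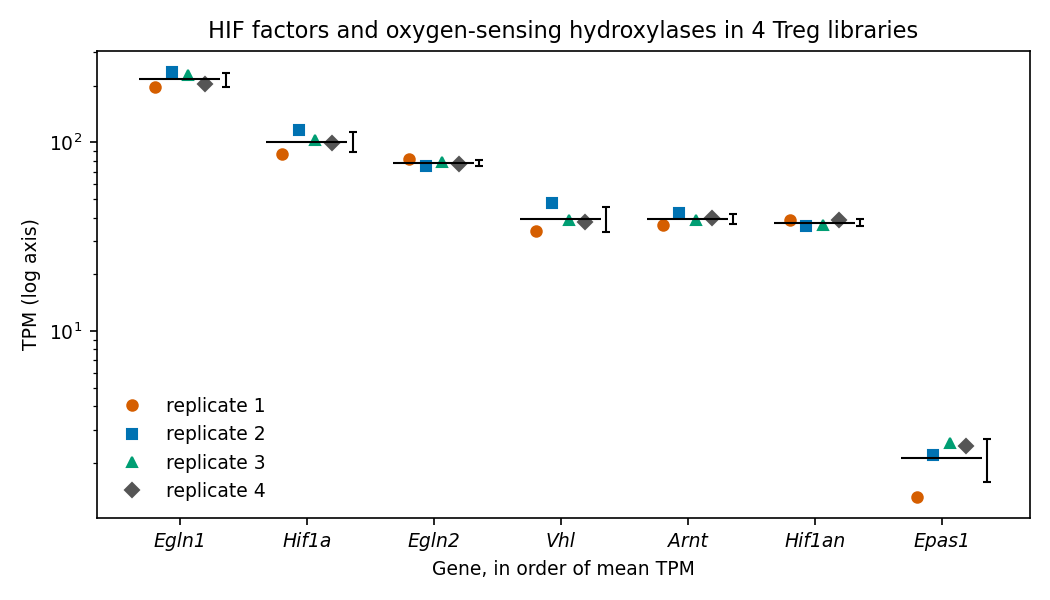
TPM of the 7 genes (log axis) in replicates 1 to 4 of the regulatory T cells, in order of mean TPM; points are libraries, horizontal lines are means and bars at the right of each gene are SD (n = 4). Egln1 lies at 197 to 236 TPM and Epas1 at 1.33 to 2.55 TPM, while Vhl, Arnt and Hif1an overlap near 40 TPM.

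Neighbours in this order were compared within each library as differences of log2(TPM + 1), higher mean first, by exact permutation of the signs, two-sided. Egln1 exceeded Hif1a by 1.09 ± 0.08, Hif1a exceeded Egln2 by 0.37 ± 0.22, Egln2 exceeded Vhl by 0.97 ± 0.25 and Hif1an exceeded Epas1 by 3.63 ± 0.31 (log2, SD, n = 4). Each of these 4 differences was above 0 in 4 of 4 libraries (exact permutation p = 0.125, the smallest that 4 libraries allow, and 0.188 adjusted over the 6 neighbour pairs). The lead of Hif1a over Egln2 ranged from 0.09 in replicate 1 to 0.63 in replicate 2. Vhl and Arnt could not be ordered, with a mean difference of -0.00 ± 0.13 that was above 0 in 1 of 4 libraries (exact permutation p = 0.875, also after adjustment), nor could Arnt and Hif1an, at 0.07 ± 0.13 with 3 of 4 above 0 (exact permutation p = 0.375, adjusted 0.450). The order was drawn from the same values, so these p-values describe it and do not test it.

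Hif1a, which encodes the oxygen-labile HIF-1 alpha subunit, was the dominant alpha subunit transcript. The gene (ENSMUSG00000021109.13) lies on chromosome 12 at 73901375 to 73947530, plus strand of mm10, and its 5858 to 18008 counts fell in 15 separate exon blocks totalling 5896 bases. It measured 86.6, 117, 103 and 98.9 TPM in replicates 1 to 4. Replicate 1 was lowest and replicate 2 highest, 1.35-fold apart, or 1.18-fold without replicate 1. The antisense gene Gm15283 overlaps its exons and held 11 to 52 counts, kept apart by strand-specific counting.

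Epas1 encodes the HIF-2 alpha subunit, which in mouse is best known from endothelium. It measured 1.33, 2.21, 2.55 and 2.46 TPM in replicates 1 to 4, from 102, 257, 399 and 131 counts over 5309 exon bases on chromosome 17 (86753907 to 86833410, plus strand). Replicate 1 was lowest, and the libraries spanned 1.92-fold, or 1.15-fold without it. Hif1a exceeded Epas1 by 5.04 ± 0.20 on the log2(TPM + 1) scale, with 4 of 4 libraries above 0 (exact two-sided sign-flip permutation p = 0.125, adjusted over 8 contrasts 0.125). The ratio of mean TPM was 47.5, and per library it was 65.3, 52.7, 40.6 and 40.3. Of the 6 fixed endothelial markers, Cdh5 and Emcn had no count in any library, Kdr and Tek stayed at or under 0.0688 TPM, and only Egfl7 and Pecam1 reached 1 TPM in all libraries, with a summed list level of 17.6 to 20.6 TPM.

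Hif3a, which encodes a further alpha subunit with splice forms that restrain HIF, measured 5.50 ± 0.653 TPM, below Hif1a. Hif1a exceeded Hif3a by 3.97 ± 0.12 (log2, n = 4, 4 of 4 above 0, exact permutation p = 0.125). As a share of the summed alpha subunit TPM, Hif1a took 93.0 ± 0.756%, Hif3a 5.06 ± 0.392% and Epas1 1.94 ± 0.415% (SD, n = 4). The sum itself was 92.5, 125, 112 and 107 TPM in replicates 1 to 4.

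Arnt encodes the constitutive beta subunit, which also pairs with the aryl hydrocarbon receptor. It lies on chromosome 3 at 95434388 to 95497240, plus strand, with 21 exon blocks, and measured 36.7, 42.3, 38.7 and 39.9 TPM in replicates 1 to 4, a spread of 1.15-fold. The processed pseudogene Gm42672 lies within Arnt on the same strand, shares no exon base with it and held 12 to 48 counts. Arnt was lower than Hif1a in every library, by 1.22 to 1.44 on the log2(TPM + 1) scale; the mean difference was -1.34 ± 0.10 (exact permutation p = 0.125, 0 of 4 above 0). Mean Arnt TPM was 0.388 times that of Hif1a. Arnt2, its paralogue known from neurons, had 0 counts among 245823618 in all 4 libraries, which allows up to 0.0122 CPM (counts scaled by library total only) at 3 counts over the group. Per exon length, Arnt was at least 7686-fold higher than Arnt2 against that floor, which covers counting error only.

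Egln1 encodes PHD2, the prolyl hydroxylase known to set HIF-1 alpha stability in most cells at normal oxygen. The gene (ENSMUSG00000031987.6) lies on chromosome 8 at 124908587 to 124949324, minus strand, with 5 exon blocks of 3594 bases in all. It measured 197, 236, 227 and 204 TPM in replicates 1 to 4, from 7354 to 24035 counts. Replicates 2 and 3 were higher than 1 and 4, by up to 1.20-fold.

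Egln2 encodes PHD1, a related enzyme. It lies on chromosome 7 at 27158658 to 27166802, minus strand, and measured 81.5, 75.0, 79.0 and 76.5 TPM, with a coefficient of variation of 3.66%. Its exons overlap Cyp2t4 on the opposite strand, which had no count. Egln1 exceeded Egln2 by 1.45 ± 0.16 on the log2(TPM + 1) scale, 2.77-fold in mean TPM, in 4 of 4 libraries (exact permutation p = 0.125).

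Egln3 encodes PHD3, the family member most strongly induced by HIF in many cell types. Per exon length it had the highest level of the 3 prolyl hydroxylase transcripts, at 264, 399, 332 and 328 TPM in replicates 1 to 4. Egln1 was lower than Egln3 by 0.60 on average, with a difference of -0.60 ± 0.15 (log2, 0 of 4 above 0, exact permutation p = 0.125). This order rested on the length correction: in CPM the difference was -0.17 (exact permutation p = 0.250), and in replicate 1 Egln1 had 10261 counts and Egln3 10167. Of the summed prolyl hydroxylase TPM, Egln1 took 34.7 ± 1.53%, Egln2 12.6 ± 1.83% and Egln3 52.7 ± 3.19% (SD, n = 4). The summed level was 543, 710, 637 and 609 TPM in replicates 1 to 4. The Egln3 share was lowest in replicate 1, at 48.6%, and highest in replicate 2, at 56.2%, while the Egln2 share ran the other way, at 15.0% and 10.6%.

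**Figure D2:**
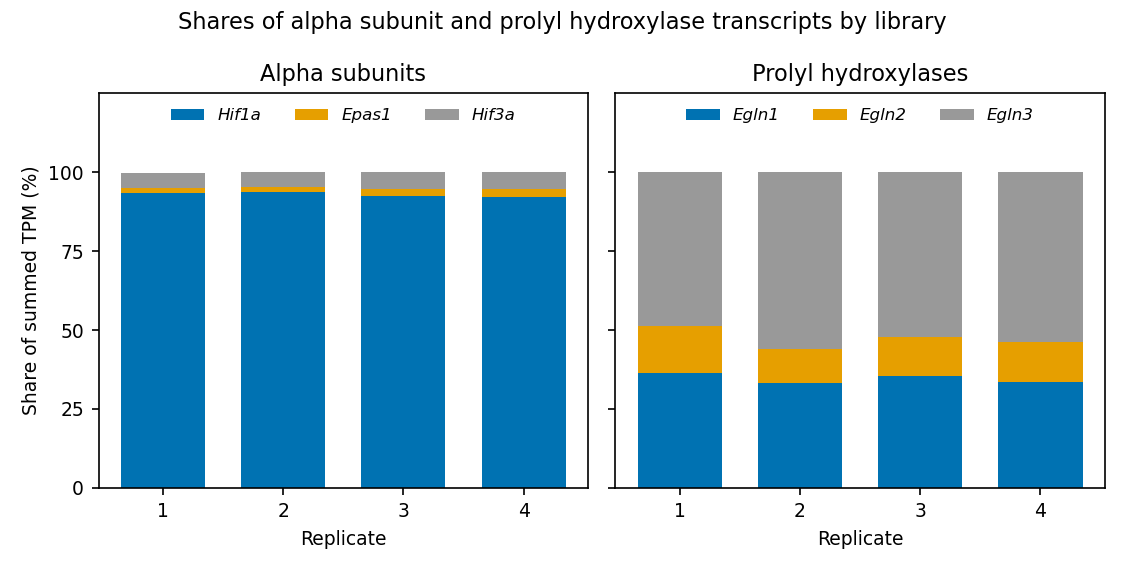
Stacked bars give the share of summed TPM (%) taken by each gene among the HIF alpha subunits and among the prolyl hydroxylases, per replicate. Hif1a takes 92.3% to 93.7% of alpha subunit transcript in the 4 libraries, and Egln3 48.6% to 56.2% of prolyl hydroxylase transcript.

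Hif1an encodes FIH, which hydroxylates an asparagine in the HIF alpha activation domain and so blocks coactivator binding. It lies on chromosome 19 at 44562850 to 44576274, plus strand, and measured 38.8, 36.0, 36.3 and 38.8 TPM in replicates 1 to 4, a spread of 1.08-fold. Hif1an was lower than Egln1 in every library; the log2 difference was -2.49 ± 0.18 (n = 4, exact permutation p = 0.125) and the ratio of mean TPM 0.174.

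Vhl encodes the substrate receptor that recognises hydroxylated HIF alpha. It lies on chromosome 6 at 113623959 to 113631633, plus strand, and measured 33.8, 47.9, 38.6 and 37.8 TPM in replicates 1 to 4. Replicate 2 was highest, 1.42-fold above replicate 1 and 1.27-fold above the lowest of the others. Vhl and Hif1a kept a narrow ratio: Vhl was at 0.390, 0.410, 0.373 and 0.383 times Hif1a in replicates 1 to 4, a log2 difference of -1.34 ± 0.06 with 0 of 4 above 0 (exact permutation p = 0.125). That SD was the smallest of the 8 contrasts tested between genes of the pathway, and the neighbour pair Egln1 and Hif1a had 0.08. The narrow ratio did not hold once trends with GC content and exon length were removed from each library. As log2 CPM deviations from the gene's own mean, replicates 2 and 3 then stood at 0.25 and -0.03 for Vhl. For Hif1a they stood at 0.07 and 0.12.

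A further comparison asked whether the spread of any of the 7 between replicates was larger than that of genes at a like level. By edgeR's one-sided goodness-of-fit test around the trend of dispersion on mean level, 0 of 7 members passed at an adjusted p under 0.05, and 0 of 7 at an unadjusted p under 0.05. Over all genes tested, 0.378% passed the adjusted threshold and 5.97% the unadjusted one. Hif1a came closest, with an unadjusted p of 0.0936 by edgeR (adjusted 0.951), followed by Vhl with 0.138 (adjusted 1.000). The coefficient of variation of TPM over libraries was 12.2% for Hif1a and 15.1% for Vhl, where the trend at their level was 6.92% and 8.90%. For Epas1 the coefficient of variation was 26.1% and the trend 22.7%. The 2 are unlike measures, because the trend is fitted to TMM-scaled counts and leaves out counting error, which the first includes. The counting error alone was 7.72% for Epas1, and 0.907% to 2.33% for the other 6 members. The median coefficient of variation was 8.56% for the members and 9.89% for all genes tested.

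The members did not share 1 pattern over the libraries. In TPM, 5 of 7 were lowest in replicate 1 (Hif1a, Epas1, Arnt, Egln1 and Vhl), against 36.5% of all genes tested. Of these, 4 were also highest in replicate 2, against 19.7% of all genes. After TMM scaling of CPM the counts were 5 and 3 of 7, against 30.1% and 13.4%, because Egln1 was then highest in replicate 3. In TPM, Egln2 and Hif1an were the reverse, highest in replicate 1 and lowest in replicate 2, as were 9.13% of all genes. For Egln2 this order did not hold once GC and length trends were removed. For Hif1an it was narrow, with replicates 1 and 4 both at 38.8 TPM and replicates 2 and 3 at 36.0 and 36.3 TPM. As log2 deviations from the gene's own mean, replicates 1 and 2 stood at -0.19 and 0.16 for Hif1a, at -0.18 and 0.24 for Vhl, at 0.10 and -0.10 for Egln2, and at 0.09 and -0.10 for Hif1an. Epas1 was the single member whose replicates 3 and 4 both lay above replicates 1 and 2, the pairs that differ in the sex-linked genes; 13.1% of all genes did so.

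**Figure D3:**
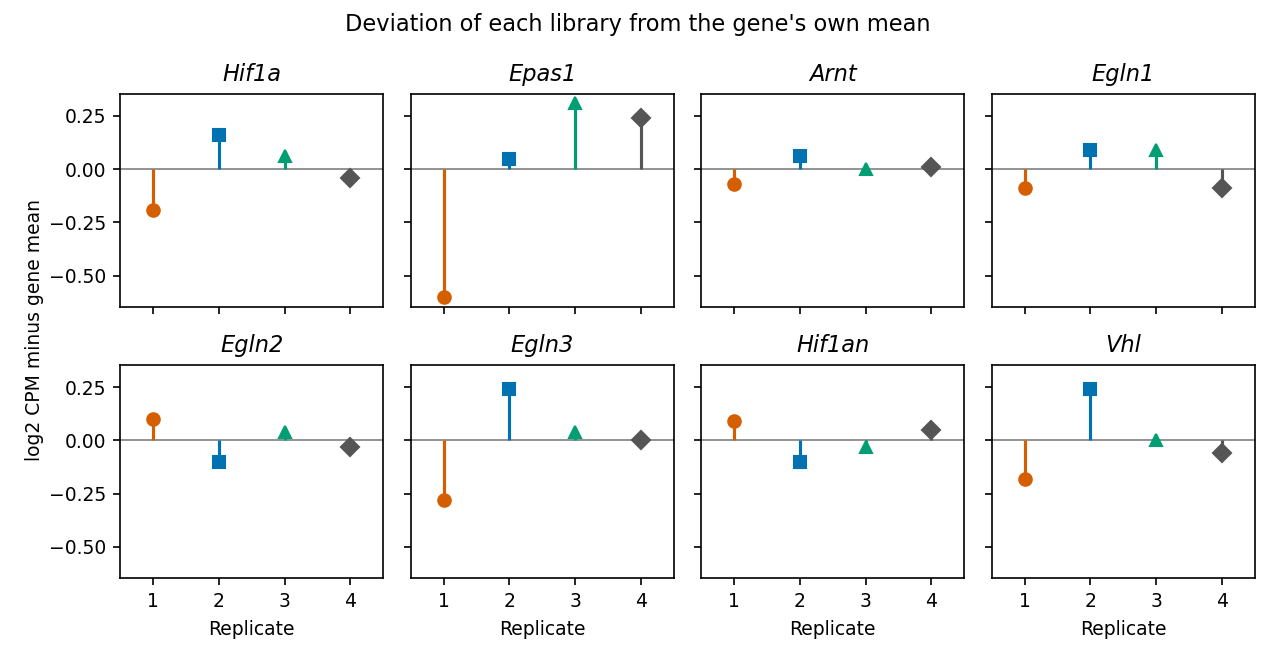
Each panel shows, for 1 gene, the log2 CPM (TMM scaled) of replicates 1 to 4 minus the gene's mean over the 4 libraries. Hif1a, Egln3 and Vhl are lowest in replicate 1 and highest in replicate 2, Egln2 and Hif1an have the opposite signs there, and Arnt stays within 0.07 of its mean.

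Removing trends with GC content and exon length from each library, a step chosen after seeing the data, left the range of Vhl at 0.42. The range of Hif1a was 0.27 with that step and 0.35 without it, that of Egln1 0.26 and 0.19, and that of Egln2 0.07 and 0.20. Hif1a was then highest in replicate 3, at 0.12, with 0.07 in replicate 2, and remained lowest in replicate 1. Egln2 then stood at 0.02, -0.01, -0.05 and 0.03 in replicates 1 to 4, so it no longer ran opposite to Hif1a, while Hif1an still did in replicates 1 and 2, at 0.09 and -0.09. Egln2, at 62.2% GC, is the member with the highest GC content. The part of GC content in the order of the libraries was not tested further.

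For each member the protein-coding gene with the nearest pattern was found, as the smallest Euclidean distance between centred log2 CPM over the 4 libraries, among genes with a mean of 5 CPM or more. For Hif1a it was Ahcyl2, at 29.0, 39.1, 34.5 and 33.1 TPM (distance 0.005). For Vhl it was Klhl7 (0.022), for Egln1 Cdkn2d (0.017), for Egln2 Nomo1 (0.003), for Hif1an Dpp7 (0.018), for Arnt Rad18 (0.010) and for Epas1 Aplp1 (0.123). For most members such neighbours were common: 227 genes lay within 0.1 of Hif1a and 101 within 0.1 of Vhl among 9629 searched, and 1251 within 0.1 of Arnt, whose level hardly moved, but 0 of 9630 lay within 0.1 of Epas1. With 4 libraries of 1 group these are descriptions.

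The partners of the von Hippel-Lindau protein were all expressed. Of its ligase subunits, Elob, which encodes elongin B, stood at 851 ± 113 TPM, the RING protein gene Rbx1 at 90.5 ± 3.72 TPM, Eloc, which encodes elongin C, at 67.4 ± 5.56 TPM, and the scaffold gene Cul2 at 59.3 ± 5.87 TPM (SD, n = 4). Elob is a short gene and measured 896, 691, 955 and 863 TPM, with replicate 2 lowest where Vhl was highest. With GC and length trends removed, the range of Elob was 0.31 in log2 CPM, against 0.53 without that step. Replicate 2 then remained lowest, at -0.22. None of the 4 passed edgeR's test after adjustment; Elob had an unadjusted p of 0.00174 (adjusted 0.200). Among coactivators and their competitor genes, Ep300 and Crebbp, which encode the acetyltransferases that HIF alpha recruits, stood at 25.7 ± 1.48 and 18.3 ± 2.19 TPM. Cited2 and Cited4, which encode proteins that compete for those acetyltransferases, stood at 28.9 ± 1.97 and 2.04 ± 0.526 TPM. After adjustment 0 of these 4 passed, against 0.378% of all genes tested, and Crebbp had an unadjusted p of 0.0335 by edgeR.

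Further genes that bear on HIF alpha stability, among them chaperone, ubiquitin ligase and deubiquitinase genes, were also present. All 10 reached 1 TPM in every library and 0 passed edgeR's test before or after adjustment, where 5.97% and 0.378% of all genes tested did. The chaperone genes Hsp90ab1 and Hsp90aa1 stood at 4952 ± 172 and 469 ± 20.1 TPM, and Rack1, which in human cells competes with HSP90 for the alpha subunit, at 1826 ± 114 TPM. The lowest of the list were Commd1 at 17.6 ± 1.12 TPM, Sirt1 at 13.7 ± 1.16 TPM and Usp20 at 10.7 ± 1.14 TPM. P4htm, which encodes a membrane-bound prolyl hydroxylase of the endoplasmic reticulum, stood at 6.72 ± 1.25 TPM.

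A list of 38 HIF target genes was set beside the members. It was chosen with earlier results on hypoxia genes of these libraries known, so neither its direction nor its count of variable genes is independent evidence. All 38 were expressed, from Ldha, the lactate dehydrogenase gene, at 3637 ± 73.4 TPM, with the glycolytic genes Aldoa (1903 to 2301 TPM) and Gapdh (2012 ± 102 TPM), down to the glycolysis regulator gene Pfkfb4 at 8.71 ± 0.958 TPM, the adrenomedullin gene Adm at 7.41 ± 1.96 TPM and the carbonic anhydrase gene Car9 at 3.39 ± 0.575 TPM. By edgeR's test 4 of 38 varied beyond the trend at an adjusted p under 0.05: Slc2a3 (1.86e-05), Bnip3 (6.78e-04), Ero1l (0.00697) and Ndrg1 (0.0274). Of all genes tested, 0.378% did. At an unadjusted p under 0.05 by the same test it was 9 of 38, against 5.97% of all genes. Slc2a3, a glucose transporter gene, measured 28.3, 54.1, 50.5 and 41.5 TPM in replicates 1 to 4, Bnip3, a mitophagy receptor gene, 94.6, 178, 143 and 143 TPM, and Ndrg1 42.7, 70.7, 63.3 and 59.7 TPM. Ero1l, which encodes an oxidase that drives disulfide formation, measured 144, 263, 196 and 207 TPM. All 4 called genes were lowest in replicate 1 and highest in replicate 2 in TPM. So were 16 of the 38 targets, these 4 included, and 19.7% of all genes tested. Without replicate 1, 0 of these 4 passed (edgeR adjusted p = 0.955 for Slc2a3 and 1.000 for the other 3). The mean deviation of the list was -0.14, 0.04, 0.07 and 0.03 (log2 CPM) in replicates 1 to 4. In TPM, 28 of 38 were lowest in replicate 1, against 36.5% of all genes tested. Gm42418 was highest in that library; its part in the result was not tested.

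**Figure D4:**
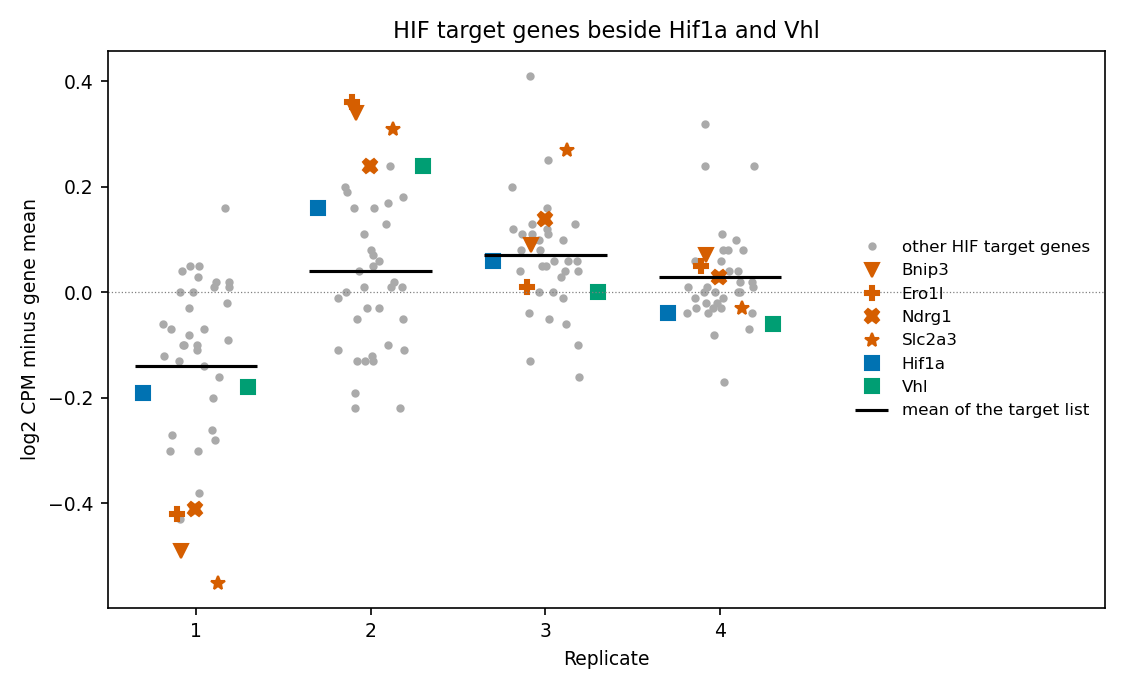
Points are the 38 HIF target genes in each replicate as log2 CPM (TMM scaled) minus the gene's own mean, with the 4 genes past edgeR's test in orange, Hif1a in blue, Vhl in green and the list mean as a black line. In replicate 1 the list mean is at -0.14, Hif1a at -0.19 and Vhl at -0.18, and in replicate 2 they are at 0.04, 0.16 and 0.24.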

How the data were processed

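Per the file headers, the authors ran featureCounts 1.4.6-p4 on STAR alignments, counting read pairs with both ends mapped over GENCODE M13 exons at strand setting 2, without multimapping or overlapping reads. The deposited values are raw, unnormalized counts, and the labels name mm10. The sources used here do not give the alignment settings. Gene symbols came from GENCODE M21 for 50376 of 50600 identifiers. TPM was computed from the counts and the summed exon lengths in the files; union exon lengths lower the TPM of genes with long unused isoforms. Variation between replicates was tested over 13478 genes by the one-sided goodness-of-fit test of edgeR 4.0.16 (R 4.3.3) around a trended dispersion, after TMM scaling and filterByExpr (minimum count 10), with Benjamini-Hochberg adjustment. The procedure was tested on simulated data. Within-library contrasts used log2(TPM + 1) and an exact sign-flip permutation test. Depths of 32648138 to 94983494 counts put a floor of 3 counts at 0.0316 to 0.0919 CPM. Alternatives covered scaling, filters, dispersion, pseudocount, length correction and each replicate left out. Named genes were all members, the highest 3, lowest 3 and called genes of each list, and each member's nearest pattern. The members (by name, with no threshold on values), lists and tests were chosen with earlier results of these data known. The deposited text notes were not used.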

Additional observations from a re-analysis of the deposited data

Results flagged for a closer look

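Of 49 values examined, 1 was marked because its gap to the nearest library passed Dixon's 95% limit, as about 1 in 20 do by chance. Crebbp, the acetyltransferase gene, was at 21.6 TPM in replicate 1, against 17.6, 17.2 and 17.0 TPM in replicates 2 to 4. Its edgeR goodness-of-fit p was 0.0335 before adjustment and 0.763 after. None of the 7 HIF factors, hydroxylases and Vhl was marked in TPM. The values examined did not cover every gene of the lists. The target gene Hmox1, not among them, stood at 12.2 TPM in replicate 1, against 16.6, 16.4 and 16.5 TPM in replicates 2 to 4.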

How the results depend on the processing

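No paired analysis was possible because the libraries form a single group. Under all alternatives run (other scaling and filters, common dispersion, each replicate left out), 0 of 7 members varied beyond the trend at an adjusted p under 0.05; with the common dispersion Epas1 had an unadjusted p of 0.0234 (edgeR, adjusted 0.209). The count over all genes was 51, against 931 with the common dispersion and 17 to 56 with 1 replicate left out (17 without replicate 1); the cause was not tested. The 8 contrasts between pathway genes kept their direction under all alternatives. Among neighbours, the Vhl and Arnt difference turned positive in 2 cases, at 0.03 without replicate 1 and 0.02 without replicate 4, and with replicates left out it ranged from -0.06 to 0.03. Without length correction, in CPM, Vhl and Arnt differed by -1.40, Hif1a and Egln2 by 1.43, and Egln1 and Egln3 by -0.17. Egln2 was then below Arnt and Hif1an in every library. Against TPM over protein-coding genes, member means were 41.9 for Arnt, 82.9 for Egln2 and 39.8 for Hif1an. Of the 4 target genes called, all 4 lost the call with the common dispersion (edgeR adjusted p 0.102 to 0.592) and without replicate 1, Ero1l also without replicate 2 (0.253), and Ndrg1 also without replicate 3 (0.103), without replicate 4 (0.0575) and without the low-count filter (0.0644). The common dispersion, 0.135 as a fraction of the mean, lies above the trend at these 4 genes (7.12% to 7.63%). It also lies above the trend at 6 members (6.92% to 8.90%), but below that at Epas1 (22.7%). That setting is therefore stricter for the former and looser for Epas1 whatever their spread, so it cannot weigh on these calls. Depth limits Epas1 most, at 102 to 399 counts.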
